A study of Mus musculus with 12 samples.

Results

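The 10 genes described here are 9 that encode neuronal calcium-binding proteins (Calb1, Calb2, Pvalb, Necab1, Necab2, Necab3, Hpcal4, Ncald and Vsnl1) and Reln, which encodes the secreted glycoprotein reelin. They were chosen by name, with earlier results of these data known, as 10 of the 19938 genes for which the array had a probe set with a single gene symbol. Each had exactly 1 such probe set. Of these, 9 lay above the filter on dim genes (mean log2 value of at least 5.43) and were tested among 14953 genes. Pvalb, with a mean below it, was tested in a second fit without the filter, over all 19938 genes.

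The calcium-binding proteins share the EF-hand, a helix-loop-helix that holds a calcium ion. Calbindin (Calb1), calretinin (Calb2) and parvalbumin (Pvalb) buffer calcium and mark classes of neurons, among them GABAergic interneurons, whereas the visinin-like sensors (Vsnl1, Hpcal4, Ncald) bind calcium and then move to membranes and bind targets, and the NECAB proteins carry an EF-hand domain at the N terminus. Reelin is no EF-hand protein. It is secreted by Cajal-Retzius cells and by some interneurons, binds the receptors Vldlr and Lrp8 on migrating neurons and leads to phosphorylation of the adaptor Dab1, and it is best known for the layering of the cortex.

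The cultures were neurons made from D3 mouse embryonic stem cells and taken at day 16 of differentiation, which ran through embryoid bodies formed without the self-renewal factor LIF. The groups were D3 cells with knockdown of the arginine methyltransferase PRMT1 (siPRMT1), D3 cells with knockdown of its relative PRMT8 (siPRMT8), D3 cells that carried a scrambled, non-targeting sequence (siSCR) and unmodified D3 cells (D3), with 3 biological replicates each. Every engineered group is a single line, so what a line's history adds cannot be told apart from its knockdown, and the labels do not give how the sequences were delivered. They also do not say whether replicates were separate differentiations, so the p-values cover the spread among these 12 cultures, whose small number limits the precision.

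Values are log2 expression values of a probe set, and a difference of 1 is 2-fold. Levels of different genes are not comparable on this scale, and no detection call was at hand. In the label check Prmt1 fell by 1.06 in siPRMT1 against siSCR (adjusted p = 0.000115) and Prmt8 fell by 0.61 in siPRMT8 against siSCR (adjusted p = 0.0171), a call lost without siSCR replicate 2 or 3 or siPRMT8 replicate 2 (adjusted p = 0.0599 to 0.0728). Prmt8 also fell in siPRMT1 against D3 (-0.75, adjusted p = 0.00488) and, without siSCR replicate 1, against siSCR (-0.50, adjusted p = 0.019, beside -0.32 and adjusted p = 0.177 with it), while siPRMT1 against siPRMT8 gave 0.29 (adjusted p = 0.489). Prmt1 rose in siPRMT8 (0.43 against siSCR, adjusted p = 0.00625). Among the arrays, 2 stood apart from their groups. Over 21 pan-neuronal genes the mean log2 value was 8.44 in siSCR replicate 1, a difference of -0.81 from the mean of siSCR replicates 2 and 3, and 19 of the 21 genes read lower there than in both. In siPRMT1 replicate 2 the mean over 11 pluripotency genes was 8.94, against 9.85 and 9.66 in replicates 1 and 3, and Necab1 differed by -1.14 from the mean of those replicates. Without it 862 genes in place of 23 passed between siPRMT1 and siPRMT8. Where leaving out either array changes a call given here, the value without it is stated. All comparisons with siSCR share its 3 arrays, as those with D3 share the D3 arrays.

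The sequences around the transcription start are shown for 3 genes that fell in both knockdown lines (Reln, Vsnl1, Hpcal4) and for 1 that did not pass in either (Necab2). RefSeq windows of assembly GRCm38.p6, 250 bases before to 50 after the start, were matched for 6 of the 10 genes by symbol. Each is written 5′ to 3′ on the gene's strand, and the capitals mark GC boxes (GGGCGG, or CCGCCC on the other strand). The Reln window is chr5:22344656-22344955 (minus strand), that of Vsnl1 chr12:11436529-11436828 (minus strand), that of Hpcal4 chr4:123183254-123183553 (plus strand) and that of Necab2 chr8:119446469-119446768 (plus strand).
Reln promoter: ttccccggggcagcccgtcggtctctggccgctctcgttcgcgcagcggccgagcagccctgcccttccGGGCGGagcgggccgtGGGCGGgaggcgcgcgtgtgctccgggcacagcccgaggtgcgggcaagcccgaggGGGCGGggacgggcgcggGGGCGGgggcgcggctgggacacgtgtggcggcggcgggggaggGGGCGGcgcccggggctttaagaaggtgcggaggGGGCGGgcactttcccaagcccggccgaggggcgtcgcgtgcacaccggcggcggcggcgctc
Vsnl1 promoter: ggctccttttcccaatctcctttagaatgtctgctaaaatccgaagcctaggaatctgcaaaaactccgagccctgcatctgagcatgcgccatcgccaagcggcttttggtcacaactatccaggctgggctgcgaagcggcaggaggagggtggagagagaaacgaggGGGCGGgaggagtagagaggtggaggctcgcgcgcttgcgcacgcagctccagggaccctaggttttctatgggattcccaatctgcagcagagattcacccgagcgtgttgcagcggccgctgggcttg
Hpcal4 promoter: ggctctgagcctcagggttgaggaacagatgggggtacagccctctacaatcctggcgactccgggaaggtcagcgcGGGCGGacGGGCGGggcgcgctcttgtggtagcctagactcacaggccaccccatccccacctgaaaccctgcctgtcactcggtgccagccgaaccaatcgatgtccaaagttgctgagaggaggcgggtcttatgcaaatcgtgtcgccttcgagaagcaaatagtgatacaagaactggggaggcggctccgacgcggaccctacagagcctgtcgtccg
Necab2 promoter: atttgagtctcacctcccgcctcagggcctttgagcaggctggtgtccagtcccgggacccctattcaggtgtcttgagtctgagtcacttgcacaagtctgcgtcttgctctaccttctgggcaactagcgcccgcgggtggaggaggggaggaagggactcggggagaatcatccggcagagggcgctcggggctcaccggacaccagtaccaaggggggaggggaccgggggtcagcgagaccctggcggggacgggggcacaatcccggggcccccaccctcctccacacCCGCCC

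Of these 4 the Reln window was the richest in G and C, at 80.7% with 47 CpG dinucleotides and 6 GC boxes. The Hpcal4 window held 61.7% G and C, 22 CpG and 2 GC boxes, the Vsnl1 window 58.7%, 18 CpG and 1 GC box, and the Necab2 window 66.7%, 17 CpG and 1 GC box. RefSeq lists a second Vsnl1 start, whose window held 44.3% G and C, 6 CpG and no GC box. Over all 32851 windows the median was 52.7% G and C with 7 CpG, and 35.7% held a GC box. An E-box (CANNTG, a palindrome, counted once) occurred in each of the 4 windows printed and in 72.3% of all windows. Neither TGACG or its reverse complement CGTCA (in 20.8% of all windows) nor TAATTA (in 5.29%) occurred in any window of the 6 genes. The Necab2 window lay between those of the 3 genes that fell in G and C and just below them in CpG, and a match is a description and no evidence of binding.

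Against siSCR, 6 of the 9 tested genes fell in siPRMT1 (Calb1, Necab1, Hpcal4, Ncald, Vsnl1 and Reln) and none rose, where 11.6% of all tested genes fell and 7.18% rose (limma, Benjamini-Hochberg adjusted p under 0.05). In siPRMT8, 5 of the 9 fell (the same without Calb1) and none rose, where 13.2% of all genes fell and 10.7% rose. The median log2 difference of the 9 was -0.59 in siPRMT1 and -0.27 in siPRMT8, beside 0.036 and 0.012 over all tested genes. Against D3, 7 of 9 fell in siPRMT1 and 7 of 9 in siPRMT8, where 14.7% and 15.2% of all genes fell. These were Calb1, Calb2, Necab1, Hpcal4, Ncald, Vsnl1 and Reln in both. Necab2 and Necab3 passed in none of these 4 comparisons. Necab1, Hpcal4, Ncald, Vsnl1 and Reln read lower in all 6 knockdown arrays than in any of the 6 control arrays, a pattern that 9.49% of all tested genes showed.

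**Figure D1:**
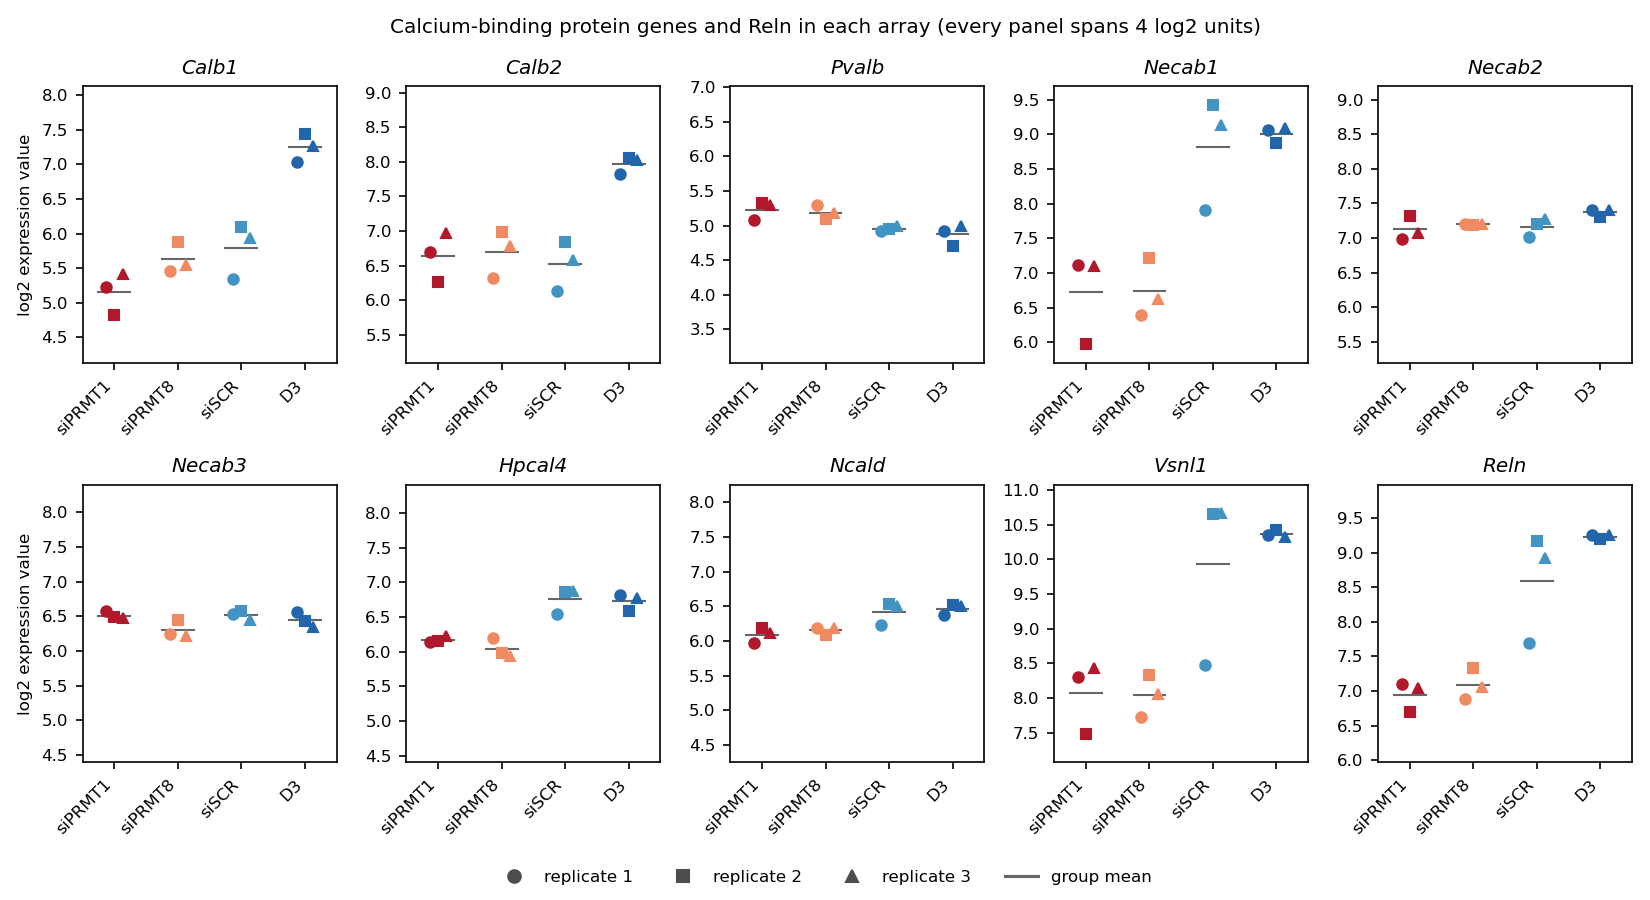
Log2 expression value (y axis) of each of the 10 genes in the 12 arrays, with the groups siPRMT1, siPRMT8, siSCR and D3 along the x axis; symbols give the replicate and bars the group mean, and every panel spans 4 log2 units. In Necab1, Vsnl1 and Reln the 6 knockdown arrays lie low and siSCR replicate 1 lies below the other control arrays, whereas in Calb1 and Calb2 only the D3 arrays lie high.

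These falls went along with lower readings of neuronal genes in general. Of the 21 pan-neuronal genes 16 fell in siPRMT1 and 15 fell and 1 rose in siPRMT8 against siSCR, with medians of -0.97 and -0.76. Their mean log2 value ranged over 8.11 to 8.20 in siPRMT1 and 8.15 to 8.35 in siPRMT8, against 8.44 to 9.27 in siSCR and 9.19 to 9.29 in D3. The mean over 10 astrocyte genes also lay lower, at 7.45 to 7.71 in siPRMT1 and 7.47 to 7.80 in siPRMT8, against 8.14 to 8.51 in siSCR and 8.30 to 8.33 in D3. In the same way the glutamatergic mean (14 genes) was 6.16 to 6.31 in siPRMT1 and 6.28 to 6.38 in siPRMT8, against 6.55 to 7.20 in siSCR and 7.03 to 7.06 in D3. The mesenchymal mean (10 genes) was 7.17 to 7.52 in siPRMT1 and 7.38 to 7.59 in siPRMT8, against 7.72 to 7.95 in siSCR and 7.66 to 7.73 in D3. The cell cycle mean (16 genes) went the other way, at 10.03 to 10.29 in siPRMT1 and 10.14 to 10.18 in siPRMT8, against 9.88 to 10.01 in siSCR and 9.91 to 9.96 in D3, and 6 of its genes rose and none fell in each line against siSCR. Each array read a whole culture, so fewer cells of a type and less RNA per cell cannot be told apart, and the part of these shifts in the results for the 10 genes was not tested.

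Among the buffers, calbindin and calretinin were low against D3 in all 3 engineered lines, the scrambled one included. Calb1 read 5.23, 4.82 and 5.42 in siPRMT1, 5.46, 5.88 and 5.54 in siPRMT8, 5.34, 6.10 and 5.94 in siSCR, and 7.04, 7.44 and 7.26 in D3. The D3 arrays lay above the other 9, a pattern whose share among all tested genes is not given. Of the siSCR arrays only replicate 1 lay within the range of the 6 knockdown arrays, and replicates 2 and 3 lay above all 6. Against D3, Calb1 fell by 2.09 in siPRMT1 (SE 0.203, 4.26-fold, adjusted p = 0.0002), fell by 1.62 in siPRMT8 (3.07-fold, adjusted p = 0.000583) and fell by 1.45 in siSCR (2.74-fold, adjusted p = 0.0261). Against siSCR it fell by 0.64 in siPRMT1 (SE 0.203, adjusted p = 0.048) and differed by -0.17 in siPRMT8 (adjusted p = 0.597). The siPRMT1 and siSCR arrays overlapped through siSCR replicate 1. The siPRMT1 call was lost in 13 of 21 alternative settings (adjusted p = 0.00355 to 0.186 over all 21). Among these were the fits without siSCR replicate 2 (-0.48, adjusted p = 0.186) or 3 (-0.57, adjusted p = 0.156) and without siPRMT1 replicate 2 (-0.47, adjusted p = 0.119). Without siSCR replicate 1 the differences from siSCR were -0.86 in siPRMT1 (adjusted p = 0.00457) and -0.39 in siPRMT8 (adjusted p = 0.129). With siPRMT1 replicate 2 left out as well, they were -0.70 in siPRMT1 (adjusted p = 0.00355) and -0.39 in siPRMT8 (adjusted p = 0.0375).

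Calb2 read 6.70, 6.26 and 6.97 in siPRMT1, 6.32, 6.99 and 6.78 in siPRMT8, 6.13, 6.85 and 6.59 in siSCR, and 7.83, 8.06 and 8.02 in D3. The 3 engineered lines overlapped, and every D3 array lay above them. As for Calb1, the share of all tested genes with this pattern is not given, so the pattern is set against no background. Against D3 calretinin fell by 1.33 in siPRMT1 (SE 0.217, 2.51-fold, adjusted p = 0.00135), fell by 1.28 in siPRMT8 (2.42-fold, adjusted p = 0.00172) and fell by 1.44 in siSCR (2.72-fold, adjusted p = 0.037). Against siSCR neither knockdown line passed, with 0.12 in siPRMT1 (adjusted p = 0.733) and 0.17 in siPRMT8 (adjusted p = 0.617).

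The comparison of siSCR with D3 asks what the scrambled line itself carries, and few genes changed in it. Of the 14953 tested genes 23 passed, 0.154%, and 0.0936% passed as lower. Calb1 and Calb2 were the only 2 of the 9 to pass, and by log2 difference they were numbers 2 and 3 from the lowest of all tested genes. An unadjusted p under 0.05 (limma) was reached by 4 of the 9, with Reln (-0.63, adjusted p = 0.523) and Necab2 (-0.20, adjusted p = 0.499) besides these. In these 4 genes every siSCR array lay below every D3 array. The shares of all tested genes at that unadjusted p or without overlap are not given, so neither count is set against a background. The calls of Calb1 and Calb2 depended on single arrays, as did the number of genes that passed, which ranged over 2 to 60 with 1 array left out at a time. Without siSCR replicate 1, Calb1 still fell (-1.23, adjusted p = 0.032) and Calb2 did not pass (-1.25, adjusted p = 0.0569). Without siSCR replicate 3 neither passed (Calb1 -1.52, adjusted p = 0.0745, and Calb2 -1.48, adjusted p = 0.0815), and leaving out any 1 D3 array ended both calls (Calb1 -1.55 to -1.36 and Calb2 -1.51 to -1.40, with adjusted p = 0.0924 to 0.199 over both genes). Leaving out siPRMT8 replicate 3, which enters through the shared variance, also ended both (adjusted p = 0.0547 for Calb1 and 0.0723 for Calb2).

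Pvalb ran the other way at a low reading. Parvalbumin marks fast-spiking interneurons, and its probe set read 5.08, 5.32 and 5.29 in siPRMT1, 5.29, 5.09 and 5.18 in siPRMT8, 4.92, 4.95 and 5.0 in siSCR, and 4.92, 4.71 and 5.0 in D3. All 6 knockdown arrays lay above all 6 control arrays, which 7.06% of tested genes also did. In the fit without the filter it rose against D3 by 0.35 in siPRMT1 (SE 0.0908, adjusted p = 0.0193) and rose by 0.31 in siPRMT8 (adjusted p = 0.0344), where 8.30% and 8.53% of all 19938 genes rose. Against siSCR it did not pass (0.27, adjusted p = 0.075 in siPRMT1 and 0.23, adjusted p = 0.119 in siPRMT8). The readings lie in the lowest 25% of the table, and without detection calls they do not show that Pvalb was expressed.

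**Figure D2:**
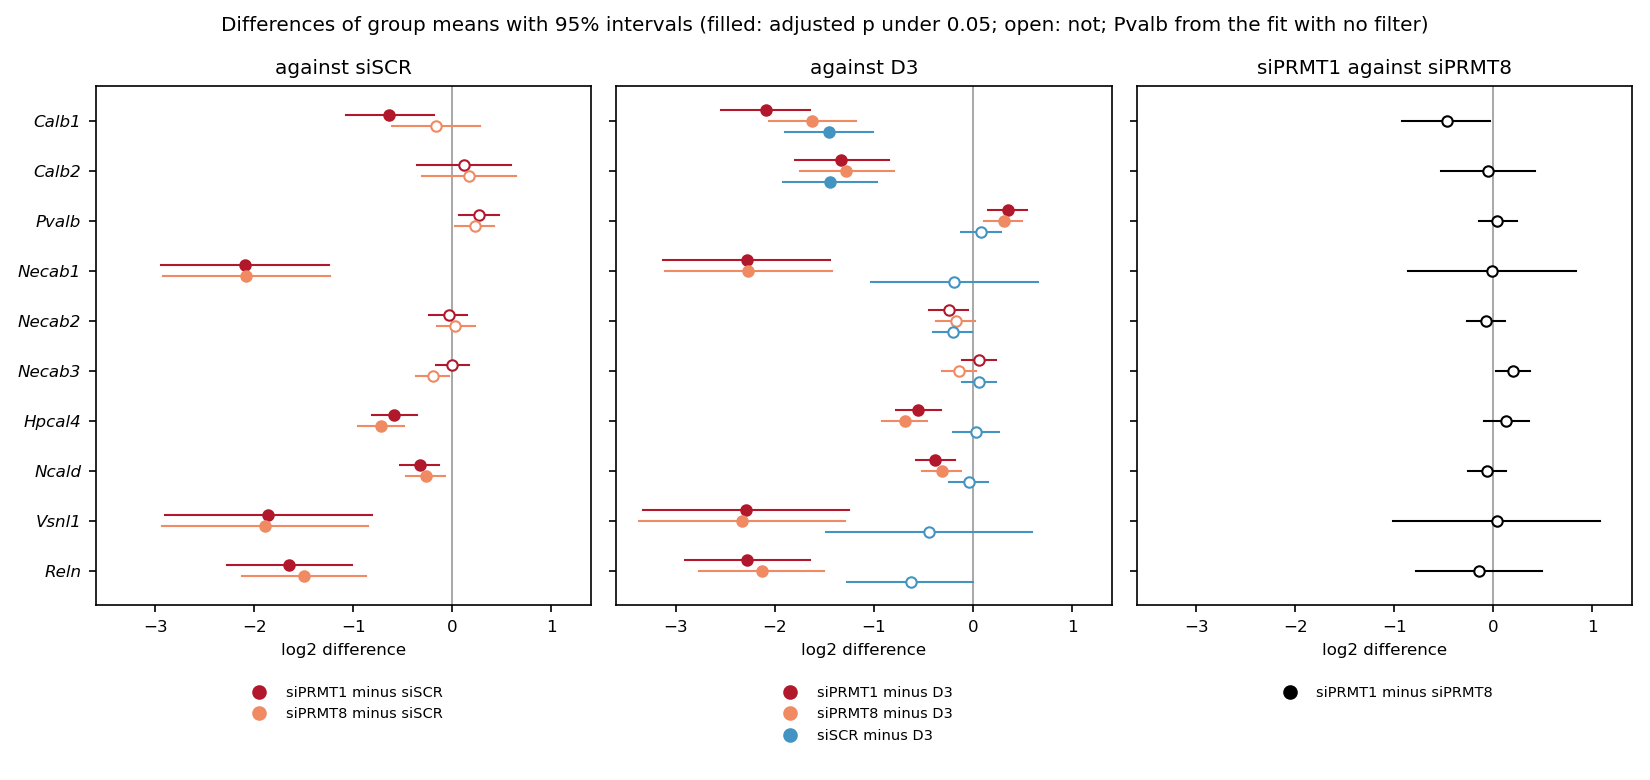
Differences of group means in log2 (x axis) with 95% intervals for each gene, in the comparisons with siSCR, with D3 and between the knockdown lines; filled points passed at an adjusted p under 0.05. Of the 10, the largest falls against siSCR are those of Necab1 (-2.09 and -2.08), Vsnl1 and Reln, Calb1 and Calb2 are low against D3 in all 3 engineered lines, and no gene passed between siPRMT1 and siPRMT8.

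The 3 NECAB genes did not move together. Necab1 read 7.12, 5.97 and 7.10 in siPRMT1, 6.40, 7.22 and 6.62 in siPRMT8, 7.91, 9.43 and 9.13 in siSCR, and 9.07, 8.88 and 9.09 in D3. Every knockdown array lay below every control array, and siPRMT1 replicate 2 was the lowest of all. Necab1 fell by 2.09 in siPRMT1 (SE 0.386, 4.27-fold, adjusted p = 0.00453) and fell by 2.08 in siPRMT8 (4.23-fold, adjusted p = 0.00376) against siSCR, number 7 from the lowest log2 difference of all tested genes in both. Against D3 it fell by 2.28 in siPRMT1 (4.87-fold, adjusted p = 0.0016) and fell by 2.27 in siPRMT8 (adjusted p = 0.00172). siSCR did not differ detectably from D3 (-0.19, adjusted p = 0.921).

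Necab2 read 6.99, 7.32 and 7.07 in siPRMT1, 7.20, 7.19 and 7.21 in siPRMT8, 7.02, 7.20 and 7.28 in siSCR, and 7.40, 7.31 and 7.40 in D3. The knockdown and siSCR arrays shared one range, and the differences from siSCR were -0.04 in siPRMT1 (adjusted p = 0.777) and 0.03 in siPRMT8 (adjusted p = 0.844). Against D3 Necab2 differed by -0.24 in siPRMT1 (adjusted p = 0.0626), which passed without siPRMT1 replicate 2 (-0.34, adjusted p = 0.00716) and without siSCR replicate 1 (-0.24, adjusted p = 0.0396). Necab3, which binds amyloid precursor protein-binding adaptors, read 6.57, 6.49 and 6.47 in siPRMT1, 6.25, 6.45 and 6.22 in siPRMT8, 6.53, 6.57 and 6.44 in siSCR, and 6.56, 6.43 and 6.35 in D3. All 12 values lay close together. Its difference from siSCR was 0.00 in siPRMT1 (adjusted p = 0.989) and -0.20 in siPRMT8 (adjusted p = 0.0803), and the siPRMT8 value passed without siPRMT8 replicate 2 (-0.27, adjusted p = 0.0342).

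All 3 visinin-like sensors fell in both knockdown lines, by very different amounts. Vsnl1, the sensor with the widest change, read 8.31, 7.48 and 8.43 in siPRMT1, 7.73, 8.33 and 8.06 in siPRMT8, 8.47, 10.65 and 10.67 in siSCR, and 10.35, 10.42 and 10.33 in D3. siSCR replicate 1 lay just above the highest knockdown array and differed by -2.19 from the mean of the other siSCR arrays, which themselves averaged 0.29 above D3. Vsnl1 fell by 1.86 in siPRMT1 (SE 0.476, 3.62-fold, adjusted p = 0.0197) and fell by 1.89 in siPRMT8 (3.71-fold, adjusted p = 0.0153) against siSCR. Without siSCR replicate 1 the differences were -2.59 in siPRMT1 (adjusted p = 1.68e-05) and -2.62 in siPRMT8 (adjusted p = 1.82e-05). Without siSCR replicate 2 or 3 they did not pass (-1.5 and -1.48 in siPRMT1, adjusted p = 0.0888 and 0.0913, and -1.53 and -1.52 in siPRMT8, adjusted p = 0.066 and 0.0695), nor did siPRMT8 without its replicate 1 (-1.74, adjusted p = 0.0568) or 3 (-1.90, adjusted p = 0.052). Against D3, Vsnl1 fell by 2.29 in siPRMT1 (4.90-fold, adjusted p = 0.00477) and fell by 2.33 in siPRMT8 (5.02-fold, adjusted p = 0.0043). The D3 arrays lay close together, but the fit shares one spread over the groups, so the SE was 0.476 here too.

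Hpcal4, a sensor of the same family, read 6.14, 6.15 and 6.23 in siPRMT1, 6.20, 5.98 and 5.93 in siPRMT8, 6.54, 6.86 and 6.88 in siSCR, and 6.82, 6.58 and 6.78 in D3. The knockdown arrays did not overlap the controls, and siSCR replicate 1 was the lowest control array. Hpcal4 fell by 0.59 in siPRMT1 (SE 0.104, 1.5-fold, adjusted p = 0.00381) and fell by 0.72 in siPRMT8 (1.65-fold, adjusted p = 0.0013) against siSCR, and fell by 0.55 in siPRMT1 (adjusted p = 0.00288) and fell by 0.69 in siPRMT8 (adjusted p = 0.00103) against D3. These 4 calls held in every alternative setting in which Hpcal4 was tested, which leaves out the fit without the lowest 50% of genes.

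Ncald, which encodes neurocalcin delta, changed least of the 3. It read 5.97, 6.19 and 6.11 in siPRMT1, 6.19, 6.08 and 6.19 in siPRMT8, 6.23, 6.53 and 6.51 in siSCR, and 6.37, 6.52 and 6.51 in D3. The gap between the highest knockdown and the lowest control array was narrow. Ncald fell by 0.33 in siPRMT1 (SE 0.0896, 1.26-fold, adjusted p = 0.0244) and fell by 0.27 in siPRMT8 (1.21-fold, adjusted p = 0.0468) against siSCR. The siPRMT8 call was lost in 12 of 21 alternative settings and the siPRMT1 call in 5 of 21, in both lines without siSCR replicate 2 (siPRMT1 -0.28, adjusted p = 0.103, siPRMT8 -0.22, adjusted p = 0.164) or 3 (siPRMT1 -0.29, adjusted p = 0.102, siPRMT8 -0.23, adjusted p = 0.158). Against D3 Ncald fell by 0.38 in siPRMT1 (adjusted p = 0.00996) and fell by 0.31 in siPRMT8 (adjusted p = 0.0224), and the siPRMT8 call was lost without siPRMT8 replicate 2 or 3 or without D3 replicate 2 or 3 (adjusted p = 0.0508 to 0.0783).

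Reln read 7.10, 6.70 and 7.05 in siPRMT1, 6.88, 7.34 and 7.06 in siPRMT8, 7.70, 9.16 and 8.92 in siSCR, and 9.25, 9.19 and 9.25 in D3. The 2 knockdown lines overlapped each other and lay below every control array, and siSCR replicate 1 differed by -1.34 from the mean of the other siSCR arrays. Reelin mRNA fell by 1.65 in siPRMT1 (SE 0.289, 3.13-fold, adjusted p = 0.00363) and fell by 1.5 in siPRMT8 (2.83-fold, adjusted p = 0.00453) against siSCR, and these were numbers 34 and 49 from the lowest of all tested genes. Without siSCR replicate 1 the Reln differences were -2.09 in siPRMT1 (adjusted p = 2.49e-06) and -1.95 in siPRMT8 (adjusted p = 4.34e-06). Against D3 Reln fell by 2.28 in siPRMT1 (4.86-fold, adjusted p = 0.000458) and fell by 2.13 in siPRMT8 (4.39-fold, adjusted p = 0.000684), while siSCR against D3 gave -0.63 without passing (SE 0.289, adjusted p = 0.523). When siPRMT1 and siSCR were fitted alone, the siPRMT1 difference did not pass (adjusted p = 0.056), and neither did that of Necab1 (adjusted p = 0.056), so Hpcal4 was then the only 1 of the 9 to pass.

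Between siPRMT1 and siPRMT8 none of the 9 genes passed (limma), 2 had an unadjusted p under 0.05, and 23 of all tested genes, 0.154%, passed. The share of all tested genes at that unadjusted p is not given. Without siPRMT1 replicate 2, where 862 genes passed, it was still 0 of the 9. The differences, siPRMT1 minus siPRMT8, were -0.01 for Necab1 (95% interval -0.86 to 0.83), 0.04 for Vsnl1 (-1.01 to 1.08), -0.15 for Reln (-0.78 to 0.49) and 0.13 for Hpcal4 (-0.09 to 0.36). For Vsnl1 and Necab1 these intervals include a difference of 1.5-fold either way, and for Reln one with siPRMT1 lower. For these genes no likeness of the lines is shown. The Hpcal4 interval includes no difference of that size. The 2 genes with an interval that left out 0 were Calb1 (-0.47, -0.92 to -0.03, adjusted p = 0.382) and Necab3 (0.20, 0.03 to 0.37, adjusted p = 0.336). In both the arrays of the 2 lines did not overlap, as in 15.8% of all tested genes.

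The profiles over the 12 arrays were compared by the root mean square difference between 2 genes' log2 values after each gene's mean was subtracted. This distance is not scaled, so it depends on the size of a gene's changes as much as on their shape, and a large one between genes of unequal spread says nothing of shape. Vsnl1 and Reln differed by 0.285, Necab1 and Vsnl1 by 0.256 and Necab1 and Reln by 0.298, against 1.20, 1.03 and 1.19 for the spread of Vsnl1, Reln and Necab1 about their own means. Calb1 and Calb2 differed by 0.327. Among all 14952 other genes Reln was number 9 in closeness to Vsnl1, and Calb2 number 6 to Calb1. The points share the 4 groups and the 2 arrays that stand apart, so these values are a description with no test.

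The 3 genes closest to Reln were Lrrtm2 (0.107), which encodes a synaptic adhesion protein, the splicing regulator Rbfox1 (0.109) and Mab21l2 (0.109). Those closest to Necab1 were AI593442 (0.142), Tmem130 (0.157) and Pcp4 (0.188), which encodes a calmodulin regulator. Vsnl1 lay closest to the potassium channel gene Kcnk9 (0.176), to AI593442 (0.183) and to the calcium sensor Kcnip1 (0.189). Closest to Calb1 were the synaptic organiser Cbln1 (0.244), Nrn1 (0.268) and the transcription factor gene Tfap2a (0.297), and closest to Calb2 were Hoxaas2 (0.274), the neuropeptide gene Adcyap1 (0.285) and Calb1. Hpcal4 (spread 0.341) was closest to B4galnt1 (0.0847), Fam168a (0.0858) and Tnr (0.0892), and Ncald (spread 0.188) to Clstn1 (0.0459), Fam168b (0.0502) and Arvcf (0.0547). Necab2 (spread 0.131) was closest to Mllt3 (0.0585), Aff3 (0.0592) and Ttc17 (0.0624), and Necab3 (spread 0.112) to Tmem86a (0.0558), Pigv (0.0576) and Acap2 (0.0618), where such small spreads leave little for a profile to show.

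**Figure D3:**
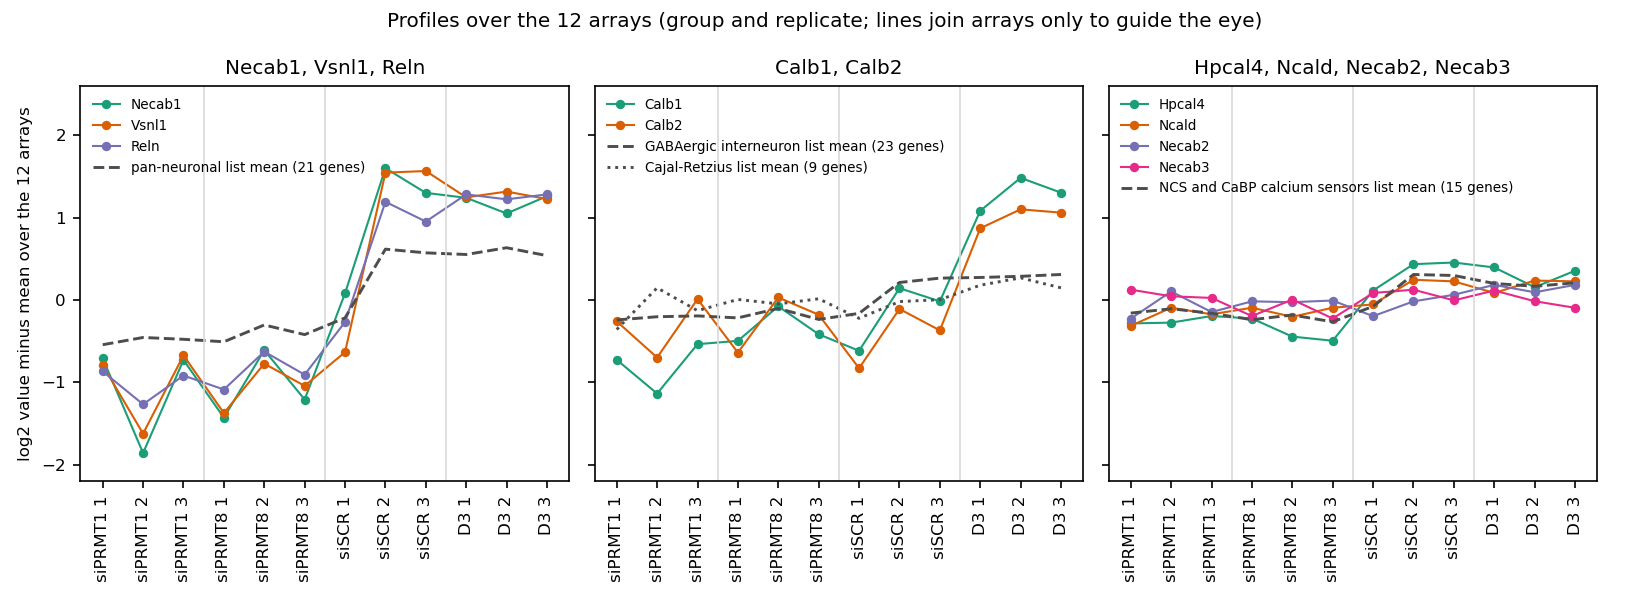
Log2 value minus each gene's mean over the 12 arrays (y axis) for each array (x axis, group and replicate), with the means of the pan-neuronal, GABAergic interneuron, Cajal-Retzius and calcium-sensor lists as dashed or dotted lines. Necab1, Vsnl1 and Reln drop in the knockdown arrays and in part in siSCR replicate 1, as the pan-neuronal mean does over a smaller range, and Calb1 and Calb2 stand high only in the D3 arrays.

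Other calcium sensors of the same families were examined next. Beside the counts of this and the following lists stand the shares of all tested genes against siSCR. These were 11.6% lower and 7.18% higher in siPRMT1, and 13.2% lower and 10.7% higher in siPRMT8. Of 13 tested genes of the neuronal calcium sensor and calcium-binding protein (CaBP) families that are not among the 10, 5 fell in siPRMT1 and 7 in siPRMT8 against siSCR and none rose, with medians of -0.11 and -0.37. Kcnip1, a potassium channel-interacting sensor, read 5.87, 5.40 and 5.86 in siPRMT1, 5.43, 6.08 and 5.98 in siPRMT8, 6.60, 8.39 and 8.22 in siSCR, and 8.03, 8.33 and 8.24 in D3. Its knockdown arrays lay below all controls, with siSCR replicate 1 in between. Kcnip1 fell by 2.02 in siPRMT1 (SE 0.373, adjusted p = 0.00453) and fell by 1.91 in siPRMT8 (adjusted p = 0.00487), and its relative Kcnip4 fell by 0.90 in siPRMT1 (adjusted p = 0.0353) and fell by 0.99 in siPRMT8 (adjusted p = 0.0201). Named after their values were seen, Ncs1 fell by 0.87 in siPRMT1 (adjusted p = 0.00365) and fell by 0.69 in siPRMT8 (adjusted p = 0.00881), and hippocalcin (Hpca) fell by 0.53 in siPRMT1 (adjusted p = 0.0263) and fell by 0.82 in siPRMT8 (adjusted p = 0.00313). With 1 array left out at a time the counts ranged over 2 to 5 in siPRMT1 and 4 to 7 in siPRMT8, lowest among others without siSCR replicate 2 or 3 (2 in siPRMT1 and 4 in siPRMT8). Kcnip4 lost its call in 9 of 21 alternative settings in siPRMT1, without siPRMT1 replicate 2 among them (-0.91, adjusted p = 0.0518), and in 5 in siPRMT8, Hpca lost its call in 5 in siPRMT1, and Kcnip1 and Ncs1 in 1 each in siPRMT1, that with only the 2 groups fitted.

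EF-hand proteins outside these families (18 tested, among them calmodulin, calcineurin B and S100 genes) had medians near 0, at 0.01 in siPRMT1 and 0.04 in siPRMT8. Among them 4 fell in siPRMT1 and 1 in siPRMT8 against siSCR, where 11.6% and 13.2% of all tested genes fell. S100a6 fell in siPRMT1 (-0.64, adjusted p = 0.0434) and differed by 0.05 in siPRMT8 (adjusted p = 0.887), while siPRMT1 against siPRMT8 did not pass (-0.69, adjusted p = 0.214). S100a11 fell in both lines against siSCR (-0.31, adjusted p = 0.0157 in siPRMT1 and -0.33, adjusted p = 0.0106 in siPRMT8). The siPRMT1 count ranged over 1 to 4 with 1 array left out at a time, and was 1 without siSCR replicate 2, siPRMT1 replicate 2 or siPRMT1 replicate 3. The S100a6 call was lost in 11 of 22 alternative settings, among them without siSCR replicate 1 (-0.40, adjusted p = 0.0964) and without siPRMT1 replicate 2 (-0.51, adjusted p = 0.103), and that of S100a11 in siPRMT1 in 3. Against D3, S100a11 passed in neither line (-0.09, adjusted p = 0.371 in siPRMT1 and -0.11, adjusted p = 0.31 in siPRMT8). S100a6 gave 0.01 against D3 in siPRMT1 (adjusted p = 0.988). In siPRMT8 it rose against D3 (0.70, adjusted p = 0.0225), a call lost in 4 of 22 alternative settings.

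Around reelin, 33 genes of its receptors and signalling were tested. Against siSCR 11 fell in siPRMT1 and none rose, and 9 fell and 2 rose in siPRMT8, with medians of -0.17 and -0.13. Cdk5r1, the activator of the kinase Cdk5, fell by 1.20 in siPRMT1 (adjusted p = 0.00122) and fell by 1.18 in siPRMT8 (adjusted p = 0.00121). Pik3r1, a regulatory subunit of phosphoinositide 3-kinase, fell by 0.73 in siPRMT1 (adjusted p = 0.0043) and fell by 0.67 in siPRMT8 (adjusted p = 0.00523). Dcx, a microtubule protein of migrating neurons, fell by 0.95 in siPRMT1 (adjusted p = 0.0166) and gave -0.68 in siPRMT8 (adjusted p = 0.054), which passed in 7 of 22 alternative settings, among them without siSCR replicate 1 (-1.04, adjusted p = 0.000168) and without siPRMT1 replicate 2 (adjusted p = 0.046). The adaptor Crk rose in siPRMT8 (0.19, adjusted p = 0.0206) and gave 0.12 in siPRMT1 (adjusted p = 0.13), and the small GTPase Rap1a rose in siPRMT8 (0.23, adjusted p = 0.0375) and gave 0.18 in siPRMT1 (adjusted p = 0.102). Without siSCR replicate 1 Rap1a did not pass in siPRMT8 (0.21, adjusted p = 0.0787), and without siPRMT1 replicate 2 it passed in siPRMT1 (0.24, adjusted p = 0.0371). Of the receptors, which were named outside the rule, Lrp8 fell by 0.63 in siPRMT1 (adjusted p = 0.00261) and fell by 0.50 in siPRMT8 (adjusted p = 0.00613), whereas Vldlr fell by 0.46 in siPRMT1 (adjusted p = 0.0374) and read -0.14 in siPRMT8 (adjusted p = 0.505). Dab1 passed in neither (-0.17, adjusted p = 0.562 in siPRMT1 and -0.12, adjusted p = 0.706 in siPRMT8). With 1 array left out at a time, 3 to 15 genes fell in siPRMT1 and 5 to 13 in siPRMT8, with the lowest count, 3 in siPRMT1, without siSCR replicate 2. The calls of Vldlr in siPRMT1 and of Rap1a were each lost in 11 of 22 alternative settings, those of Dcx and Crk in 4, and those of Lrp8 in siPRMT1 in 1. Against D3, 15 of the 33 fell in siPRMT1 and 10 in siPRMT8 and none rose, where 14.7% and 15.2% of all tested genes fell. In siPRMT8 neither Crk (0.12, adjusted p = 0.11) nor Rap1a (0.09, adjusted p = 0.369) passed. Dab1 fell against D3 in siPRMT1 (-0.57, adjusted p = 0.0471), a call lost in 13 of 22 alternative settings. In siPRMT8 it gave -0.52 (adjusted p = 0.0671), which passed without siSCR replicate 1 (adjusted p = 0.018) or siPRMT1 replicate 2 (adjusted p = 0.0243).

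**Figure D4:**
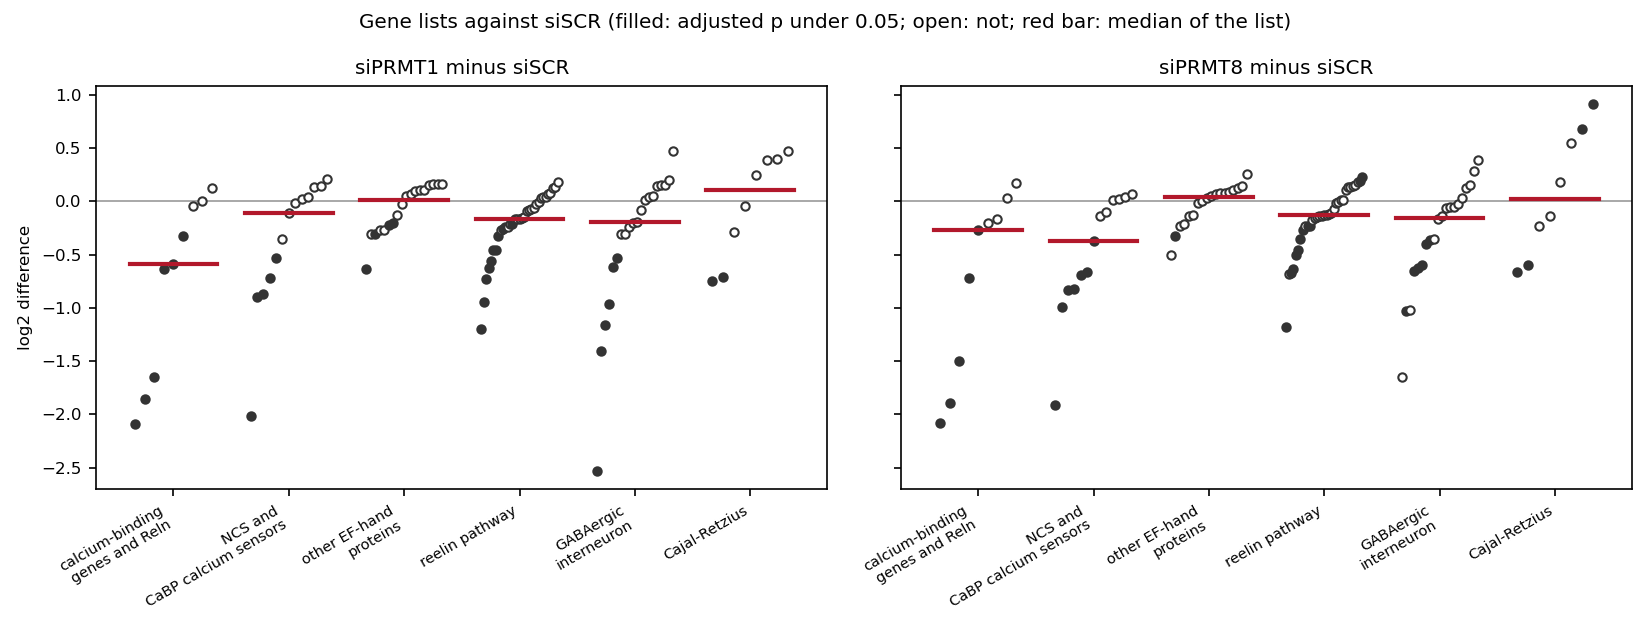
Log2 difference from siSCR (y axis) of every tested gene of each list (x axis), for siPRMT1 and siPRMT8; filled points passed at an adjusted p under 0.05 and red bars are list medians. The calcium-binding genes and Reln have medians of -0.59 and -0.27, the lowest points among the calcium sensors are Kcnip1 (-2.02 and -1.91), and the other EF-hand proteins lie near 0.

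Lists of 3 neuron classes in which some of these proteins serve as markers were set beside them. Against siSCR, 11.6% of all tested genes fell in siPRMT1 and 13.2% in siPRMT8. Of 20 tested GABAergic interneuron genes, which do not include the 10, 6 fell and none rose in siPRMT1 and in siPRMT8 against siSCR, with medians of -0.19 in siPRMT1 and -0.16 in siPRMT8. Tac1, a neuropeptide precursor, fell by 2.53 in siPRMT1 (SE 0.606, adjusted p = 0.0148) and Npy fell by 1.41 in siPRMT1 (adjusted p = 0.0266), and neither passed in siPRMT8 (Tac1 -1.65, adjusted p = 0.0693, and Npy -1.02, adjusted p = 0.0778). Both passed there without siSCR replicate 1 (Tac1 -2.42, adjusted p = 0.00279, and Npy -1.41, adjusted p = 0.0146) and without siPRMT1 replicate 2 (adjusted p = 0.0307 for Tac1 and 0.0406 for Npy), and siPRMT1 against siPRMT8 did not pass for either (Tac1 -0.88, adjusted p = 0.595, and Npy -0.39, adjusted p = 0.728). Lamp5 fell by 1.16 in siPRMT1 (adjusted p = 0.0155) and fell by 1.03 in siPRMT8 (adjusted p = 0.021). Cck gave -0.31 in siPRMT1 (adjusted p = 0.332) and fell by 0.65 in siPRMT8 (adjusted p = 0.0495). The genes of the GABA-synthesising enzymes were named outside the rule. Gad1 fell by 0.62 in siPRMT1 (adjusted p = 0.0242) and fell by 0.60 in siPRMT8 (adjusted p = 0.0235), and Gad2 fell by 0.96 in siPRMT1 (adjusted p = 0.00134) and fell by 0.63 in siPRMT8 (adjusted p = 0.00768). The mean over the 23 measured genes was 6.51 to 6.56 in siPRMT1 and 6.52 to 6.65 in siPRMT8, against 6.59 to 7.02 in siSCR and 7.03 to 7.07 in D3. With 1 array left out at a time, 1 to 7 genes fell in siPRMT1 and 1 to 9 in siPRMT8. The count was 1 in siPRMT1 without siSCR replicate 2 or 3, and 1 in siPRMT8 without siSCR replicate 3 or siPRMT8 replicate 3. The call of Cck was lost in 13 of 21 alternative settings, and those of Tac1, Npy, Lamp5 and Gad1 in 3 to 5 of 22, without siSCR replicate 2 or 3 in each case. Without siPRMT1 replicate 2 the siPRMT1 calls of Npy (-1.07, adjusted p = 0.0653) and Gad1 (-0.49, adjusted p = 0.0579) were lost.

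Purkinje cells are a class that calbindin marks. Of 6 tested Purkinje genes 4 fell in siPRMT1 and 3 in siPRMT8 against siSCR and none rose, with medians of -0.29 in siPRMT1 and -0.31 in siPRMT8. With 1 array left out at a time, 1 to 4 fell in each line, with 1 in siPRMT1 without siSCR replicate 2 or 3 and 1 in siPRMT8 without siSCR replicate 3. The list mean was 6.75 to 6.85 in siPRMT1 and 6.80 to 6.86 in siPRMT8, against 7.03 to 7.38 in siSCR and 7.25 to 7.27 in D3, whereas Calb1 itself was low in siSCR too.

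The Cajal-Retzius list, without Reln, did not move in one direction against siSCR. Of 8 tested genes 2 fell in siPRMT1, and 2 fell and 2 rose in siPRMT8 against siSCR, with medians of 0.10 and 0.02. The transcription factor gene Ebf3 fell by 0.75 in siPRMT1 (adjusted p = 0.0065) and fell by 0.66 in siPRMT8 (adjusted p = 0.00944), and Lhx1 fell by 0.71 in siPRMT1 (adjusted p = 0.0179) and fell by 0.60 in siPRMT8 (adjusted p = 0.0309). The chemokine receptor gene Cxcr4 rose in siPRMT8 (0.91, adjusted p = 0.0116) and gave 0.47 in siPRMT1 (adjusted p = 0.145), and Nhlh2 rose in siPRMT8 (0.68, adjusted p = 0.0131) and gave 0.40 in siPRMT1 (adjusted p = 0.115). Against D3, 3 of the 8 fell and none rose in each knockdown line, where 14.7% and 15.2% of all tested genes fell. The medians against D3 were -0.30 in siPRMT1 and -0.13 in siPRMT8. Cxcr4 (0.56, adjusted p = 0.0722) and Nhlh2 (0.10, adjusted p = 0.688) did not pass in siPRMT8 against D3. Without siPRMT1 replicate 2 Cxcr4 did (0.56, adjusted p = 0.00712). Between siPRMT1 and siPRMT8 neither passed (Cxcr4 -0.43, adjusted p = 0.442, and Nhlh2 -0.28, adjusted p = 0.526), and both did without siPRMT1 replicate 2 (Cxcr4 -0.72, adjusted p = 0.0213, and Nhlh2 -0.49, adjusted p = 0.0474). The mean over the 9 measured genes was 6.46 to 6.97 in siPRMT1 and 6.77 to 6.84 in siPRMT8, against 6.60 to 6.82 in siSCR and 6.97 to 7.09 in D3. The knockdown lines overlapped siSCR, where Reln did not, and both siPRMT8 and siSCR lay below D3. With 1 array left out at a time, 1 to 3 genes fell in each line, with 1 in each without siSCR replicate 2 or 3, and 0 to 3 rose in siPRMT1 and 1 to 3 in siPRMT8, with 3 in siPRMT1 without its replicate 1. The Lhx1 calls were lost in 4 of 22 alternative settings in siPRMT1 and 6 in siPRMT8, and those of Ebf3 in siPRMT1 and of Nhlh2 in 1. In siSCR against D3 no tested gene of these lists passed (limma), while an unadjusted p under 0.05 was reached by 0 calcium sensors, 3 other EF-hand genes, 5 reelin signalling genes, 5 interneuron genes, 1 Purkinje gene and 4 Cajal-Retzius genes. The share of all tested genes at that unadjusted p is not given. The medians there were 0.04 for the calcium sensors, -0.04 for the other EF-hand proteins, -0.06 for reelin signalling, -0.12 for interneuron, 0.03 for Purkinje and -0.34 for Cajal-Retzius genes.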

How the data were processed

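The deposited table held log2 expression values that the authors had processed, 1 per probe set and array, from biotin-labelled cDNA of total RNA on 1-colour whole-transcript arrays, per the labels' protocols. That the scale is log2 follows from the range of values (0.97 to 13.54). How background, summarisation and normalisation were handled is not stated in the sources at hand. Array medians lay within 0.023 of each other, so no normalisation was added. Of 35556 probe sets, 21789 had 1 symbol in the platform annotation, 1621 several and 12146 none. Symbols were updated by gene ID (21698 matched), and the probe set with the highest mean was kept per symbol. No coordinates of probe sets are given because the annotation names no build. Genes in the lowest 25% by mean were left out.

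The test was limma (version 3.58.1, under R version 4.3.3), with 4 group means in one fit and p-values adjusted by Benjamini-Hochberg over all tested genes. Calls were made at an adjusted p under 0.05, and each SE is the moderated one. The fit was tested on simulated data. Named genes were the 10, Prmt1 and Prmt8, up to 2 higher and 2 lower passing genes of each list against siSCR, and the 3 closest profiles per tested gene, and genes outside that rule are marked. The members and lists were chosen with earlier results of these data known.

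Replicate numbers occur in every group. After group means were subtracted, arrays with the same number correlated above 0.1 in all 3 pairs only for siSCR and D3 (0.107 to 0.194). With the number as a replicate block, 15 genes passed there in place of 23, and Calb1 (adjusted p = 0.0272) and Calb2 (adjusted p = 0.0309) still passed. No 2 arrays were identical. Alternatives changed the normalisation, the filter, the use of probe sets, the groups fitted, the variance model, array weights and the arrays included.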

Additional observations from a re-analysis of the deposited data

How the results depend on the processing

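Over the 9 tested genes and all comparisons, 1164 alternative values were computed, of which 1098 kept their direction or lack of a call, 56 lost a call, 10 gained one and 0 called values changed sign. With the lowest 50% of genes left out only 5 of the 9 are tested, and 3 and 3 of them changed in siPRMT1 and siPRMT8 against siSCR, 4 and 4 against D3 and 1 in siSCR against D3. Of all 9969 genes tested in that setting, 2396 and 3142 changed against siSCR and 3285 and 3544 against D3. With only the 2 groups fitted, 1 gene changed in siPRMT1 against siSCR and 0 in siSCR against D3 (limma), and over all genes 357 passed in siPRMT1 against siSCR in place of 2801. Leaving out 1 array at a time gave counts of 3 to 6 in siPRMT1 and 3 to 5 in siPRMT8 against siSCR, 7 to 8 and 6 to 7 against D3, and 0 to 2 in siSCR against D3. When 2 arrays were dropped together (replicate 1 of siSCR and replicate 2 of siPRMT1), 5077 genes changed in siPRMT1 against siSCR and 5710 in siPRMT8 (3565 with all arrays), 1901 in siPRMT1 against siPRMT8 and 152 in siSCR against D3 (23 each with all arrays). Array weights gave 5785 and 5479 genes against siSCR, 7079 and 6442 against D3 (3952 and 4135 unweighted), 1451 between the knockdown lines and 223 in siSCR against D3. Leaving out 1 array at a time gave 1317 to 3763 genes in siPRMT1 and 1804 to 4773 in siPRMT8 against siSCR, 2643 to 4639 and 2736 to 5327 against D3, and 2 to 862 between the knockdown lines. In siSCR against D3 12 genes passed with the lowest 50% left out and 9 with only these groups fitted, where siPRMT1 against siPRMT8 gave 2. The replicate block left the counts over the 9 genes at 6 and 5 against siSCR, 7 and 7 against D3, 2 in siSCR against D3 and 0 between the knockdown lines, and gave 14 in place of 23 genes between the knockdown lines over the whole table. Outside siSCR and D3 the numbers were not shown to pair the arrays (8 of 18 pairs above 0.1, and 4 of 12 arrays had their best match in another group at their own number). Apart from the losses stated with each gene, the cause of which was not tested, Necab1, Hpcal4 and Reln kept their calls. Without scanner files the signal over background is unknown, which limits Pvalb and the dimmer genes most.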
